A study of Mus musculus with 18 samples.

Results

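Cholesterol and fatty acid synthesis genes were followed as 31 named genes of the 35275 listed in the deposited expression table. They were chosen by symbol, with earlier results of these data known, and comprise 7 enzymes from acetyl-CoA to farnesyl diphosphate, 11 enzymes from squalene synthesis to the last sterol steps, 4 regulators or carriers and 9 enzymes of fatty acid synthesis and desaturation. All 31 passed the filter on low values (at least 0.5 FPM in at least 3 libraries), as did 13869 genes in all. FPM is the number of reads in a gene divided by a scaling factor of the library.

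The 18 libraries came from C2C12, a mouse myoblast line that withdraws from the cell cycle and can form myotubes when serum is lowered. The stock is described as PAX7 negative. There were 3 lines, a wild-type control and lines overexpressing the spliced (MUNC spliced) or the unspliced genomic (MUNC genomic) form of MUNC, a noncoding RNA made near the myogenic regulator Myod1. Each line was taken with 3 biological replicates in growth medium with 20% fetal bovine serum, at about 80% confluency (GM), and with 3 after 3 days in 2% horse serum (DM3). The vector, the promoter that drives MUNC, and whether a line is 1 clone or a pool are not given in the sources used here, and MUNC itself was not analysed here, so overexpression was not checked.

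Sterols and fatty acids are both built from cytosolic acetyl-CoA. The sterol arm runs through mevalonate and isoprenoids to squalene, lanosterol and cholesterol, and the fatty acid arm through malonyl-CoA to palmitate, which is then lengthened and desaturated. Both arms are transcribed under sterol regulatory element-binding proteins (SREBPs), membrane-bound factors that are released when cells are short of sterol and held back by Insig proteins when sterol is plentiful. Serum lipoproteins are a source of cholesterol for cultured cells, and growing cells need membrane lipid, so the pathway is commonly studied in relation to both serum and proliferation.

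Depth was 38416702 to 68788327 reads per library, and replicates of a group correlated at 0.980 to 0.996 over the log2 values of tested genes. The labelled state was checked against marker genes. The summed level of 10 genes of dividing cells lay between 2140 and 3789 FPM in the 9 GM libraries and between 271 and 1305 FPM in the 9 DM3 libraries. The summed level of 8 myotube genes was 8.39 to 13.8 FPM in control DM3, beside 12.1 to 31.7 FPM in control GM, against 158 to 874 FPM in MUNC spliced DM3 and 58.1 to 107 FPM in MUNC genomic DM3. Myog, a defining gene of myotube formation, was at 0.192, 0.434 and 0.405 FPM in control DM3. Myod1, a defining myoblast gene, was at 0.0854, 0 and 0 FPM in control GM and 0.0768, 0 and 0.221 FPM in control DM3, so both defining genes were near 0 in the control line. That did not hold for every gene of the myoblast list. Its 8 myoblast and satellite cell markers, Myod1 included, summed to 318 to 448 FPM in control GM and 605 to 899 FPM in control DM3. Itga7 was the largest part, at 140, 221 and 159 FPM in control GM and 346, 546 and 553 FPM in control DM3. Myf5, Des, Cdh15 and Ncam1 made up most of the rest, while Pax7 and Pax3 were near 0 in control cells too. In such bulk samples, fewer cells of a type and less RNA per cell cannot be told apart. Adipocyte markers summed to 7.22 to 11.4 FPM in control GM, 20.4 to 26.6 FPM in MUNC spliced GM and 19.1 to 27.4 FPM in MUNC genomic GM. In DM3 they summed to 8.33 to 10.9 FPM in control, 22.4 to 23.0 FPM in MUNC spliced and 14.7 to 19.5 FPM in MUNC genomic cells. Few genes carried these sums. Lpl, with 0 reads in control GM, gave most of the MUNC genomic sum in growth medium (17.3, 14.6 and 12.6 FPM). Pparg was lower than control there (4.80, 3.26 and 4.89 against 8.60, 5.22 and 7.27 FPM). Fabp4 was lower than control in both MUNC lines in growth medium. Cebpa and Pparg gave most of the MUNC spliced sums, and Cebpa and Lpl most of the MUNC genomic DM3 sum. Of these markers Lep had 0 reads in every library, and Adipoq, Plin1, Cidec and Retn were at or near 0.

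One library stood apart for these genes. MUNC spliced DM3 replicate 1 was the highest of its group for 31 of the 31 genes, as it was for 36.3% of all tested genes, and the highest of all 18 libraries for 16. The last count was not taken over all tested genes. Its level was 1.26 times (Srebf2) to 3.71 times (Idi1) the mean of replicates 2 and 3, with a median of 2.32, while the median ratio over all tested genes was 0.985. The same library had 874 FPM of myotube genes and 1305 FPM of dividing-cell genes, against 158 and 214 FPM and 366 and 330 FPM in replicates 2 and 3. Whether either belongs to its lipid gene levels was not tested. Results of the 31 genes for MUNC spliced DM3 are therefore given with and without this library. Those of the marker and related lists are given only with it. It was singled out on these same genes, so leaving it out lowers the MUNC spliced DM3 mean of every member. Calls in the lower direction made without it are thus no separate test of a fall. Leaving it out also lowers the estimated spread of many of these genes in the shared fit. Smaller adjusted p and added calls in comparisons that do not use this library are thus no separate test either. Against the mean of control GM, replicate 1 was higher for 22 of the 31 genes and lower for 9 (Pmvk, Ebp, Srebf1, Acly, Acaca, Fasn, Elovl6, Fads1 and Fads2), while replicate 2 was lower for 28 and replicate 3 for 29. Over all tested genes the median log2 difference from that mean was -0.018, 0.0020 and 0.0067 in replicates 1, 2 and 3.

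**Figure D1:**
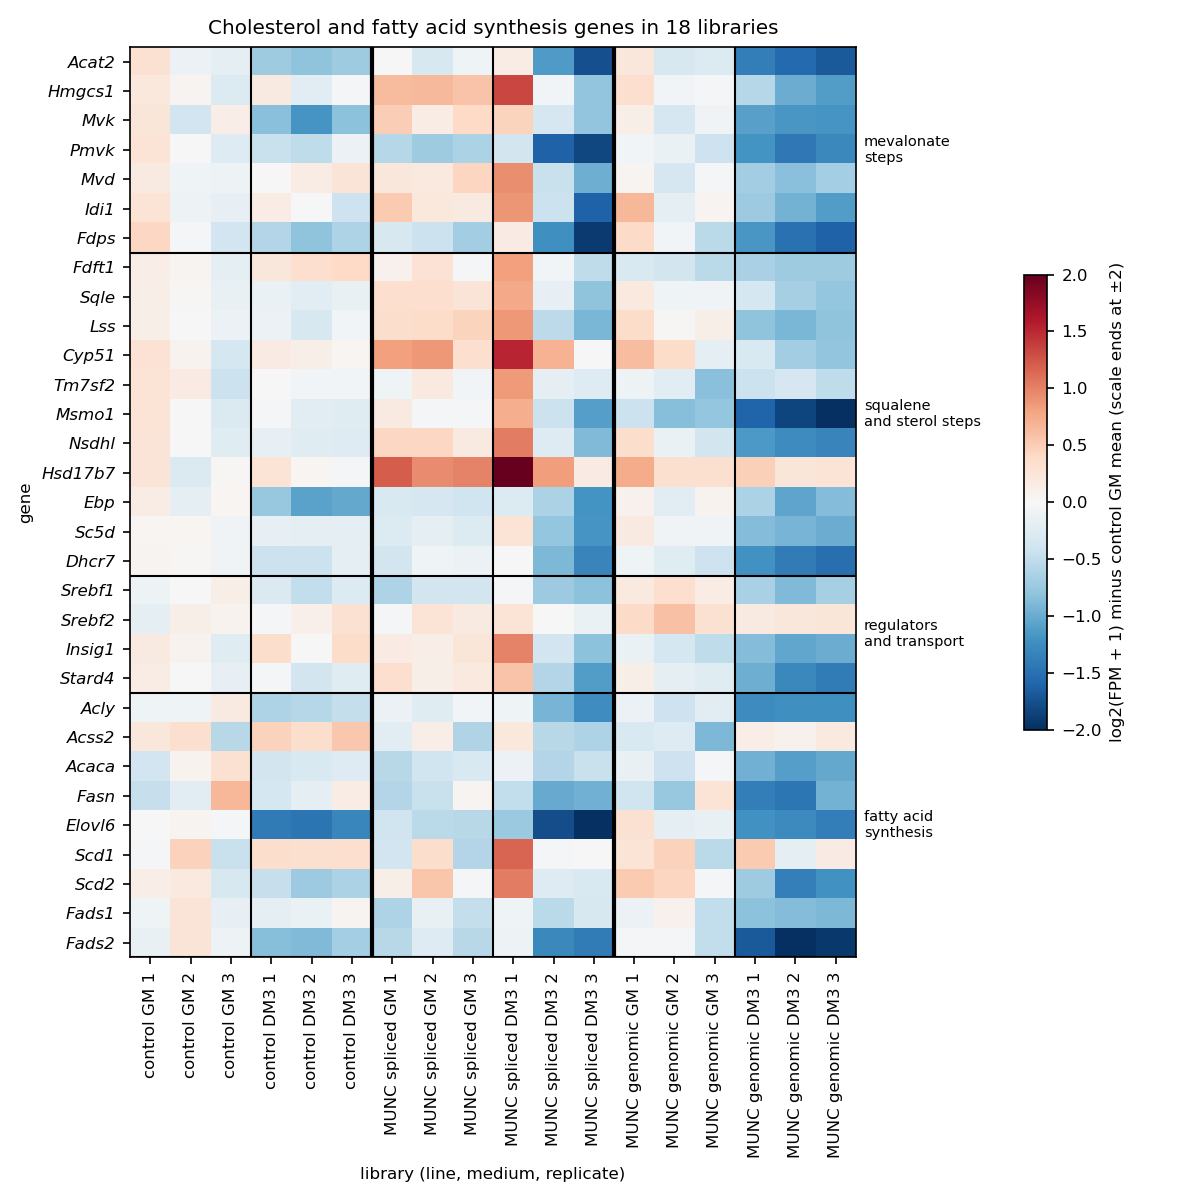
Heat map of the 31 genes (rows, in pathway order) in 18 libraries (columns), coloured by log2(FPM + 1) minus the mean of the 3 control GM libraries, with the scale ending at ±2. The 3 MUNC genomic DM3 columns are blue for most genes. MUNC spliced DM3 replicate 1 lies above the control GM mean (red) for 22 genes and below it (blue) for 9. Replicates 2 and 3 of that group lie below it for 28 and 29. Over all tested genes, not shown, the median difference from that mean was -0.018, 0.0020 and 0.0067 in replicates 1, 2 and 3.

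Levels differed widely between genes. Per kilobase of exon (FPM per kb, GENCODE M21 on GRCm38), the desaturase genes Scd2 at 332 and Scd1 at 138 were the most abundant members in control GM, followed by Acly at 88.6, Fasn at 58.6 and Hmgcs1 at 58.3. The lowest were Tm7sf2 at 2.29 and Acss2 at 2.68. The regulator genes lay between, with Srebf2 at 42.6 and Srebf1 at 21.2. Scd2 (chr19:44293674-44306864) and Scd1 (chr19:44394455-44407879) lie near each other on chromosome 19, as do Fads2 (chr19:10062765-10101746) and Fads1 (chr19:10182888-10196877). Scd1 and Scd2 are close paralogs, and how reads matching both were counted is not given in the sources used here, so the split between them is uncertain.

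Upstream sequence was read for the members from RefSeq (GRCm38.p6), which matched 24 of the 31; Fads1, Fdft1, Fdps, Scd1, Scd2, Sqle and Stard4 were not matched. The 250 bases before the RefSeq start were searched on both strands for 4 words, each on its own, so that matches of different words may share bases: CCAAT, the core bound by NF-Y, GGGCGG, the core bound by Sp1, CACGTG, an E-box, and TCACNCCAC, a form of the sterol regulatory element. CCAAT occurred in 19 of the 24 members and in 37.5% of the 27025 genes of the table. GGGCGG occurred in 20 of 24 and in 35.4% of genes. CACGTG occurred in 4 of 24 (Dhcr7, Hsd17b7, Insig1 and Sc5d) and in 6.86% of genes, and TCACNCCAC in 1 of 24 (Hmgcs1) and in 1.22% of genes. A match is only the presence of these letters in this window. The 5 members without CCAAT were Acat2 and 4 of the 6 matched fatty acid genes, Acly, Acaca, Elovl6 and Fads2.

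Stretches are shown for 7 genes on which the results below turn, 5′ to 3′ in the direction of transcription and ending at the RefSeq or the GENCODE start, whichever comes first, with CCAAT or its complement ATTGG and TCACNCCAC in capitals. Hmgcs1 (chr13:119690151-119690350, plus strand) held the sterol element word 137 bases before the start, between 2 CCAAT words. Mvk (chr5:114444069-114444268, plus strand), which fell in control and MUNC genomic cells, held 5. Nsdhl (chrX:72918321-72918520, plus strand), lower in MUNC genomic DM3, held 2. Hsd17b7 (chr1:169969242-169969405, minus strand), the member that differed most in MUNC spliced cells in GM, held 2. Fasn (chr11:120824548-120824747, minus strand) held 3, of which the last pair overlap as CCAATTGG. Acly (chr11:100528001-100528200, minus strand) and Elovl6 (chr3:129532186-129532354, plus strand), the 2 genes called lower in all 3 lines, held neither word in the printed stretch.
Hmgcs1: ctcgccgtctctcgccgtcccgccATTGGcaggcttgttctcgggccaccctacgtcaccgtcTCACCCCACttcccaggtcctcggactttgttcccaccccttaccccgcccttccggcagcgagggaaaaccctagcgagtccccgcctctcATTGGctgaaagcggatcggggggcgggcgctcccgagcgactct
Mvk: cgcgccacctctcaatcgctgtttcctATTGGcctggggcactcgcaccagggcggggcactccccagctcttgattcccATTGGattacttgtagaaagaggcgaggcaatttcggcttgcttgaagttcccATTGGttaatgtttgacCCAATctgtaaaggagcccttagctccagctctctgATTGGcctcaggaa
Nsdhl: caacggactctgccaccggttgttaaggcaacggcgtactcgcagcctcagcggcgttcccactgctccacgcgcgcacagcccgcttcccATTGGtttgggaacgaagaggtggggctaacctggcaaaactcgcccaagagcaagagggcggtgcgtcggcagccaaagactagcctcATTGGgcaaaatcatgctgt
Hsd17b7: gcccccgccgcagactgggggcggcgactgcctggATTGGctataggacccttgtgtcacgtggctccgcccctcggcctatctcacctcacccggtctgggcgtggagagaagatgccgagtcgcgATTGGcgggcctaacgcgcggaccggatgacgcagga
Fasn: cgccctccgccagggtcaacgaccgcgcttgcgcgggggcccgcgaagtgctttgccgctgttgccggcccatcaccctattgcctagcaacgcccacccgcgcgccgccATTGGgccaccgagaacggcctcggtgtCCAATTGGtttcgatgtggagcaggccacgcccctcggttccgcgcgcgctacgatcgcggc
Acly: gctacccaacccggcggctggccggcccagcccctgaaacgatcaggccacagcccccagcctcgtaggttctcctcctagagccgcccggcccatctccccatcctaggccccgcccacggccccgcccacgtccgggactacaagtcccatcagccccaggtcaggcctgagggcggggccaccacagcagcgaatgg
Elovl6: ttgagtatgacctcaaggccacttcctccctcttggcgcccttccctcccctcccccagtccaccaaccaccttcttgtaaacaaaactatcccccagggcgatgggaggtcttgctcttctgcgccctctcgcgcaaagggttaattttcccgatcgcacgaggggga

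The first question was how the genes changed from growth to differentiation medium in each line. In control cells 5 of 31 genes fell and 0 rose, at a limma adjusted p under 0.05, where 28.6% of tested genes fell and 29.6% rose. Those 5 were Elovl6, Ebp, Mvk, Fads2 and Acly. In MUNC spliced cells Elovl6 and Acly fell and 0 rose (18.4% and 17.2% of tested genes). In MUNC genomic cells 22 fell and 1, Acss2, rose (25.1% and 26.3%). The median log2 change over the 31 genes was -0.17 in control, -0.37 in MUNC spliced and -0.96 in MUNC genomic cells, beside medians of 0.02, -0.01 and 0.02 over all tested genes. Log2 changes are on log2(FPM + 1) unless edgeR or DESeq2 is named beside them or they are from the authors, and values after ± are standard errors.

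Without MUNC spliced DM3 replicate 1, 22 of 31 genes fell in the MUNC spliced line (37.6% of tested genes were then called in either direction), and leaving that library out of the shared estimate of spread gave 1 higher and 11 lower in control cells (59.0% called). The count of 22 follows in part from leaving out the library that was highest of its group for every member. The added control calls follow in part from the smaller spread once that library is left out. With the replicate number as a block, 8 genes fell in control cells (65.3% called). In MUNC genomic cells the groups did not overlap for 27 genes that were lower and 1 that was higher in DM3 (30.3% and 32.5% of tested genes), and in control cells for 11 lower and 2 higher (30.5% and 31.9%). In the plot of changes by line, the MUNC genomic points lie furthest to the left for most genes.

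**Figure D2:**
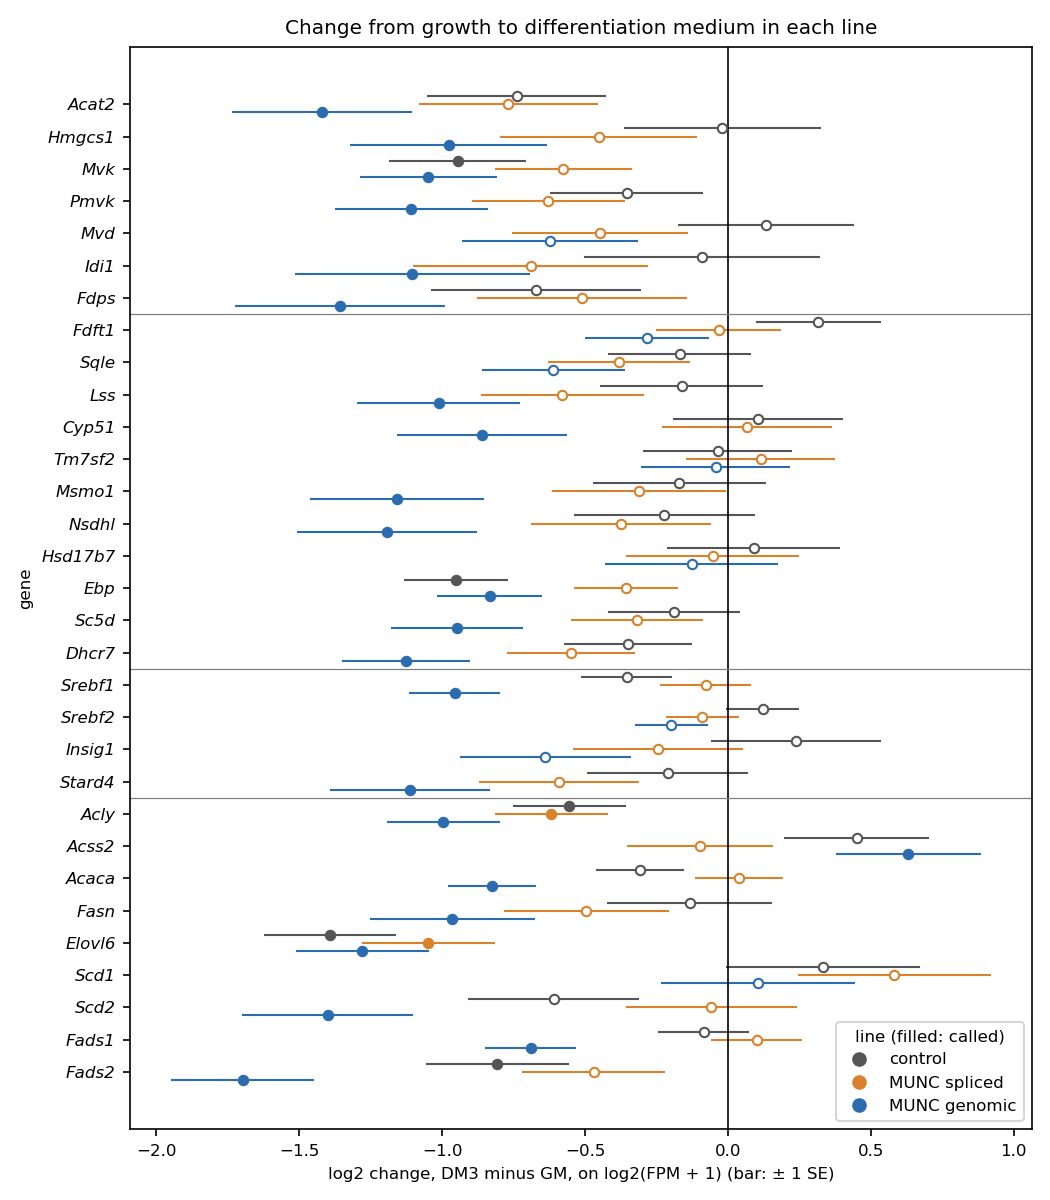
Change of each of the 31 genes (y axis) from GM to DM3 in log2 units on log2(FPM + 1) (x axis), with bars of ± 1 SE from limma, for control, MUNC spliced and MUNC genomic cells. Filled points passed an adjusted p under 0.05: 5 in control, 2 in MUNC spliced and 23 in MUNC genomic cells.

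Of the 7 enzymes that make farnesyl diphosphate, Mvk (mevalonate kinase) fell in control cells, and 6 of 7 fell in the MUNC genomic line, with a median log2 change of -1.11. Hmgcs1, the cytosolic HMG-CoA synthase that commits acetyl units to mevalonate, was at 309, 275 and 219.7 FPM in control GM and 302, 227 and 262 FPM in control DM3. In MUNC spliced cells it was at 411, 417 and 396 FPM in GM and 671, 256 and 154 FPM in DM3. In MUNC genomic cells it was at 334, 256 and 260.3 FPM in GM and 178, 133 and 122 FPM in DM3. The 3 MUNC genomic DM3 libraries were below every GM library, while the control groups overlapped and the MUNC spliced DM3 group spanned its GM group. The change was -0.02 ± 0.34 in control (adjusted p = 0.970), -0.45 ± 0.34 in MUNC spliced (adjusted p = 0.321) and -0.98 ± 0.34 in MUNC genomic cells (adjusted p = 0.0256). Without MUNC spliced DM3 replicate 1 the MUNC spliced change was -1.04 ± 0.21 (adjusted p = 0.00132). The MUNC genomic call for Hmgcs1 was lost without GM replicate 1 (adjusted p = 0.0879), DM3 replicate 2 (0.0697) or DM3 replicate 3 (0.0861), and without the filter on low values (0.0626).

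Idi1, which isomerises the first isoprenoid unit, was at 23.5, 17.9 and 17.1 FPM in control GM and 21.6, 19.3 and 14.2 FPM in control DM3. MUNC spliced cells held 28.1, 22.5 and 22.1 FPM in GM and 36.6, 14.1 and 5.64 FPM in DM3. The MUNC genomic line had 31.2, 16.8 and 20.1 FPM in GM and 11.3, 9.59 and 8.33 FPM in DM3. The MUNC genomic groups did not overlap, and those of the other lines did. Idi1 fell by 1.11 ± 0.41 in MUNC genomic cells (adjusted p = 0.0336), a call that was lost without GM replicate 1 (0.137), GM replicate 3 (0.0583), DM3 replicate 2 (0.0726) or DM3 replicate 3 (0.0964), without the filter on low values (0.0779) and with quantile normalization (0.0521). It changed by -0.09 ± 0.41 in control (adjusted p = 0.870) and -0.69 ± 0.41 in MUNC spliced cells (0.203). Without MUNC spliced DM3 replicate 1 the latter was -1.33 ± 0.30 (0.00292).

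Mvk was at 27.0 to 42.1 FPM in control GM and 15.0 to 19.5 FPM in control DM3, with every DM3 library below every GM library. It fell by 0.95 ± 0.24 there (adjusted p = 0.00302) and by 1.05 ± 0.24 in MUNC genomic cells (adjusted p = 0.00174). Acat2, which joins the first 2 acetyl units, and Fdps, which makes farnesyl diphosphate, were the enzymes of this segment that fell most in MUNC genomic cells. Acat2 fell by 1.42 ± 0.31 and Fdps by 1.36 ± 0.37 (adjusted p = 0.00135 and 0.00566). Pmvk, the next kinase after Mvk, fell by 1.11 ± 0.27 (0.00254), and Mvd, the decarboxylase after it, was the 1 gene of the 7 not called, at 18.2 to 24.1 FPM in MUNC genomic GM and 12.7 to 14.1 FPM in MUNC genomic DM3.

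Of the 11 enzymes from squalene synthesis onward, Ebp, a sterol isomerase, was the 1 that fell in control cells, and 7 fell in MUNC genomic cells (Nsdhl, Msmo1, Dhcr7, Lss, Sc5d, Cyp51 and Ebp). Sqle, the squalene epoxidase that is a control point of the arm, was at 274, 259 and 229.9 FPM in control GM and 231, 218 and 228 FPM in control DM3. In MUNC spliced cells it was at 319, 321 and 302 FPM in GM and 429, 225 and 145 FPM in DM3. In MUNC genomic cells it was at 289, 239 and 243 FPM in GM and 199, 159.6 and 147 FPM in DM3. The DM3 libraries of MUNC genomic cells all lay below the GM libraries, yet the change of -0.61 ± 0.25 missed the threshold (adjusted p = 0.0508), and it passed without MUNC spliced DM3 replicate 1 in the shared fit (adjusted p = 0.00236) and without MUNC genomic DM3 replicate 1 (0.0421). It also passed with edgeR (0.0485) and DESeq2 (0.0449) on reads, a stricter filter, equal sums per library, the replicate block and only the compared groups. Sqle changed by -0.17 ± 0.25 in control (adjusted p = 0.589) and -0.38 ± 0.25 in MUNC spliced cells (0.248), the latter becoming -0.80 ± 0.16 (0.00130) without DM3 replicate 1.

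Further along the arm, Nsdhl and Msmo1, which act together in removing methyl groups from lanosterol products, fell in MUNC genomic cells by 1.19 ± 0.32 and 1.16 ± 0.30 (adjusted p = 0.00483 and 0.00462). Msmo1 was at 123, 91.6 and 96.7 FPM in MUNC genomic GM and 54.4, 46.0 and 37.9 FPM in MUNC genomic DM3. Dhcr7, the reductase of the last step of 1 branch, fell by 1.13 ± 0.22 (0.000573), and Lss, which cyclises squalene epoxide to lanosterol, by 1.01 ± 0.29 (0.00732). Cyp51, the lanosterol demethylase, fell by 0.86 ± 0.30 (0.0235), a call lost without GM replicate 1 (0.104), GM replicate 2 (0.0600), DM3 replicate 2 (0.0680) or DM3 replicate 3 (0.0802), or without the filter on low values (0.0571). Ebp fell by 0.95 ± 0.18 in control (0.000346) and 0.83 ± 0.18 in MUNC genomic cells (0.00128). Hsd17b7 and Tm7sf2, sterol reductases, overlapped between GM and DM3 in all 3 lines, as did Fdft1, the squalene synthase, in MUNC spliced cells.

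The regulators did not follow one pattern. Srebf2, which encodes the SREBP most tied to sterol genes, was at 268, 329 and 321 FPM in control GM and 296, 326 and 378 FPM in control DM3. It was at 301, 368 and 344 FPM in MUNC spliced GM and 369, 308 and 278 FPM in MUNC spliced DM3. In the MUNC genomic line it was at 396, 456 and 375 FPM in GM and 346, 358 and 362 FPM in DM3. No change was called: it was 0.12 ± 0.13 in control (adjusted p = 0.434), -0.09 ± 0.13 in MUNC spliced (0.614) and -0.20 ± 0.13 in MUNC genomic cells (0.210), although the 3 MUNC genomic DM3 libraries were all below their GM libraries. Without DM3 replicate 1 the MUNC spliced change was -0.20, also not called.

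Srebf1, which encodes the SREBPs more tied to fatty acid genes, was at 111, 118 and 129 FPM in control GM and 96.8, 84.0 and 98.7 FPM in control DM3. It was at 77.3, 92.2 and 92.1 FPM in MUNC spliced GM and 116, 71.3 and 67.2 FPM in MUNC spliced DM3. MUNC genomic cells held 137, 149.7 and 132 FPM in GM and 75.7, 63.9 and 75.1 FPM in DM3. Srebf1 fell by 0.96 ± 0.16 in MUNC genomic cells (adjusted p = 0.000126), where the lowest GM library was well above the highest DM3 library. The control groups did not overlap either, but the change of -0.35 ± 0.16 was not called (adjusted p = 0.0672; 0.00852 without MUNC spliced DM3 replicate 1 in the shared fit, 0.0498 with edgeR on reads and 0.0288 with only the compared groups). In MUNC spliced cells it was -0.08 ± 0.16 (0.743), and -0.32 ± 0.12 (0.0390) without DM3 replicate 1.

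Insig1, the SREBP target whose product retains SREBPs in the endoplasmic reticulum, was at 124, 114 and 91.6 FPM in control GM and 140.0, 108 and 141 FPM in control DM3. It was at 122, 120.0 and 129 FPM in MUNC spliced GM and 218, 83.5 and 61.5 FPM in MUNC spliced DM3. The MUNC genomic line had 99.4, 85.5 and 76.8 FPM in GM and 59.6, 52.6 and 54.1 FPM in DM3. The MUNC genomic DM3 libraries were the lowest 3 of the 18, and the change of -0.64 ± 0.30 missed the threshold (adjusted p = 0.0840), passing it at 0.00152 without MUNC spliced DM3 replicate 1 in the shared fit, 0.00394 with only the compared groups and 0.0470 with the replicate block. The change was 0.24 ± 0.30 in control (0.517) and -0.25 ± 0.30 in MUNC spliced cells (0.550), the latter -0.78 ± 0.16 (0.00139) without DM3 replicate 1.

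Stard4, a cytosolic sterol carrier, was at 109.6, 98.5 and 87.9 FPM in control GM and 96.1, 76.0 and 83.4 FPM in control DM3. It was at 124, 106 and 113 FPM in MUNC spliced GM and 147, 65.2 and 44.6 FPM in MUNC spliced DM3. In the MUNC genomic line it was at 107, 85.5 and 82.8 FPM in GM and 49.6, 39.6 and 36.7 FPM in DM3. It fell by 1.11 ± 0.28 in MUNC genomic cells (adjusted p = 0.00347), with no overlap. The changes of -0.21 ± 0.28 in control (0.543) and -0.59 ± 0.28 in MUNC spliced cells (0.110) were not called, and without MUNC spliced DM3 replicate 1 the latter was -1.07 ± 0.17 (0.000181).

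**Figure D3:**
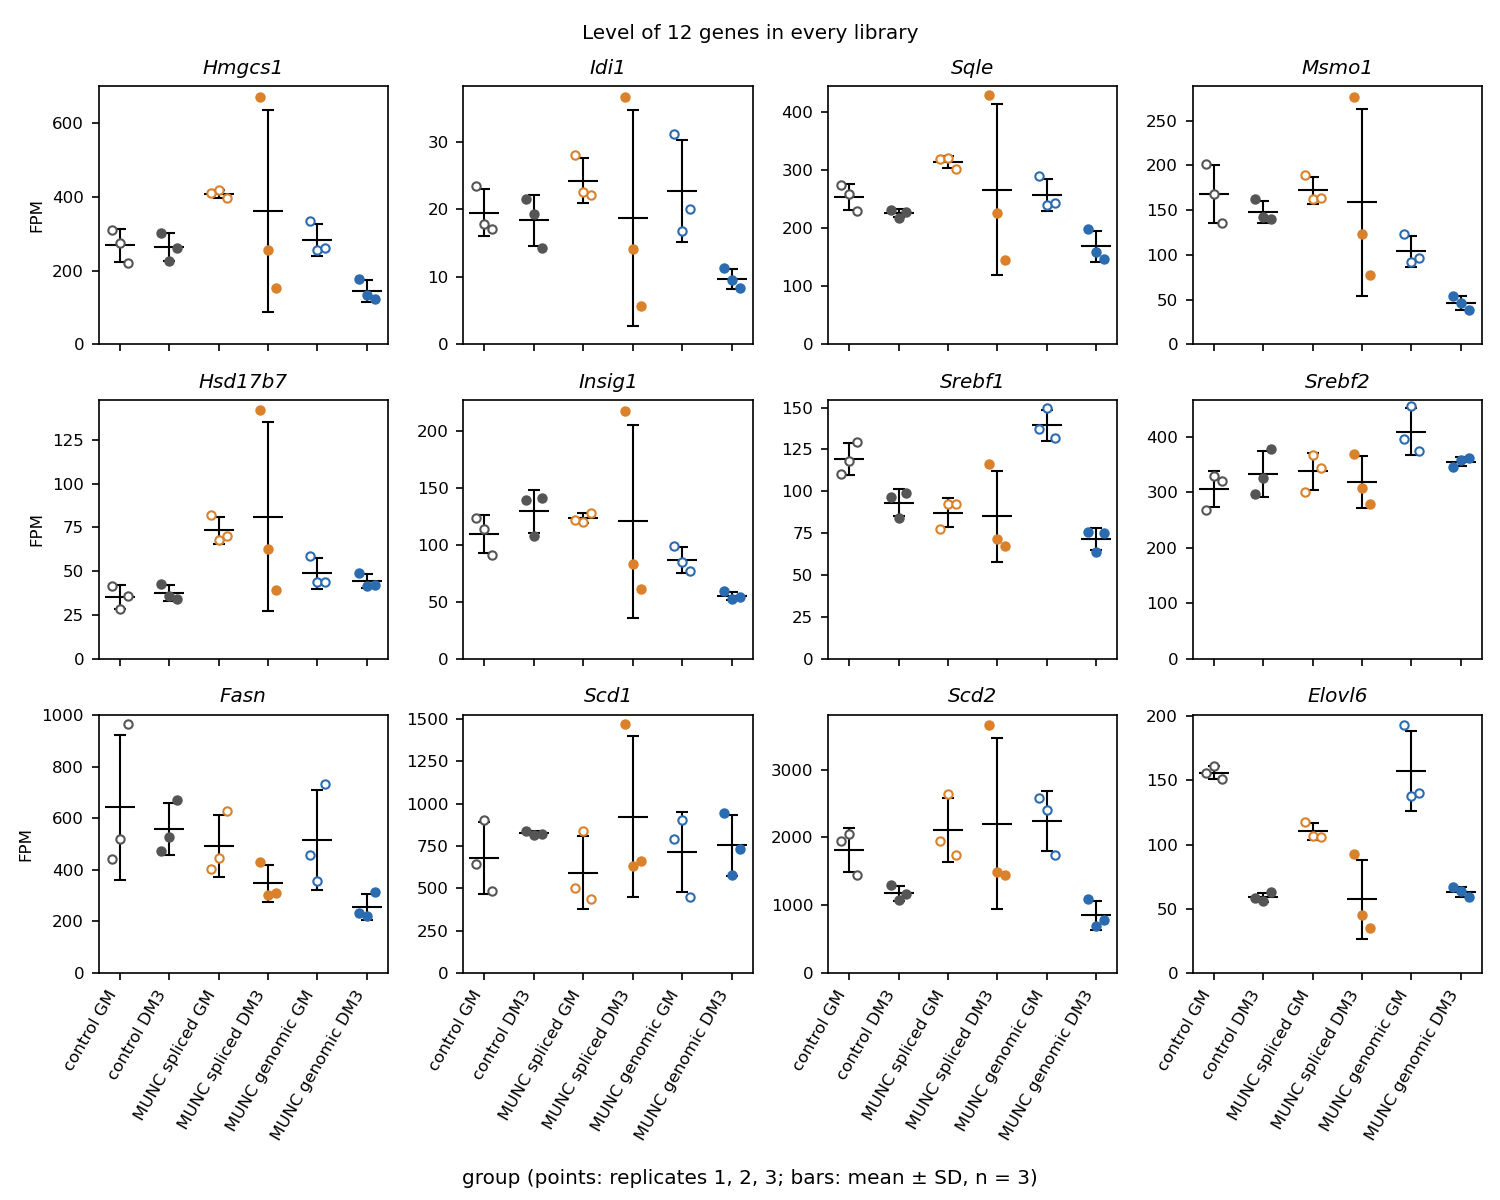
Level in FPM (y axis, from 0) of 12 genes in every library, by group (x axis), with the mean and SD of 3 replicates as bars. MUNC genomic DM3 is low and tight for Hmgcs1, Msmo1 and Insig1, Srebf2 stays between 268 and 456 FPM in all 18 libraries, and Elovl6 is lower in DM3 in each line.

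Among the 9 genes of fatty acid synthesis, Elovl6, Fads2 and Acly fell in control cells, Elovl6 and Acly in MUNC spliced cells, and 7 fell while Acss2 rose in MUNC genomic cells. Elovl6, which lengthens palmitate to stearate, was at 155, 161 and 151 FPM in control GM and 58.1, 55.7 and 62.7 FPM in control DM3. It was at 117, 107 and 106 FPM in MUNC spliced GM and 92.4, 45.1 and 34.9 FPM in MUNC spliced DM3. MUNC genomic cells held 193, 137 and 140.4 FPM in GM and 66.8, 64.2 and 58.9 FPM in DM3. Every DM3 library was below every GM library of its line. Elovl6 fell in all 3 lines, with a change of -1.39 ± 0.23 in control (adjusted p = 9.51e-05), -1.05 ± 0.23 in MUNC spliced (0.00257) and -1.28 ± 0.23 in MUNC genomic cells (0.000268), and of -1.45 ± 0.14 (9.78e-07) in MUNC spliced cells without DM3 replicate 1. With only the 6 MUNC spliced libraries in the fit, the MUNC spliced call was lost (adjusted p = 0.0576).

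Acly, which cleaves citrate to supply cytosolic acetyl-CoA to both arms, was at 438, 437 and 529 FPM in control GM and 302, 313 and 336 FPM in control DM3. It was at 429, 394 and 449.8 FPM in MUNC spliced GM and 439, 243 and 197 FPM in MUNC spliced DM3. The MUNC genomic line had 428, 351 and 404 FPM in GM and 194, 198 and 198 FPM in DM3. Acly also fell in all 3 lines, by 0.55 ± 0.20 in control (adjusted p = 0.0243), by 0.62 ± 0.20 in MUNC spliced (0.0232), where the groups overlapped through replicate 1, and by 1.0 ± 0.20 in MUNC genomic cells (0.000569). The control call was lost without control GM replicate 3 (0.0923), DM3 replicate 1 (0.0636) or DM3 replicate 2 (0.0583), or without the filter on low values (0.0525). The MUNC spliced call was lost without GM replicate 1 (0.0607) or 3 (0.0784), or DM3 replicate 2 (0.0929) or 3 (0.144), and was -0.95 ± 0.12 (2.28e-05) without DM3 replicate 1. It was also lost with edgeR (0.0598) and with DESeq2 (0.0524) on reads, with only the compared groups (0.146) and without the filter on low values (0.0507).

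Acaca, the acetyl-CoA carboxylase that makes malonyl-CoA, was at 80.0, 111 and 130.3 FPM in control GM and 81.3, 85.2 and 87.3 FPM in control DM3. It was at 71.1, 79.7 and 84.7 FPM in MUNC spliced GM and 97.0, 69.8 and 77.0 FPM in MUNC spliced DM3. In the MUNC genomic line it was at 94.8, 78.5 and 102 FPM in GM and 53.6, 48.5 and 51.1 FPM in DM3. Acaca fell by 0.83 ± 0.16 in MUNC genomic cells (adjusted p = 0.000363), with no overlap. It changed by -0.31 ± 0.16 in control (0.10; 0.00743 without control GM replicate 1) and 0.04 ± 0.16 in MUNC spliced cells (0.869). Without DM3 replicate 1 the MUNC spliced change was -0.094 (adjusted p = 0.680).

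Fasn, the synthase that builds palmitate, was at 441, 521 and 963 FPM in control GM and 475, 527 and 669 FPM in control DM3. It was at 404, 446 and 628 FPM in MUNC spliced GM and 430.2, 301 and 311 FPM in MUNC spliced DM3. MUNC genomic cells held 458, 358 and 732 FPM in GM and 232, 221 and 313 FPM in DM3. GM replicate 3 was the highest GM library in each line. Fasn fell by 0.96 ± 0.29 in MUNC genomic cells (adjusted p = 0.0106), a call lost without GM replicate 3 (0.0701). It changed by -0.13 ± 0.29 in control (0.720) and -0.50 ± 0.29 in MUNC spliced cells (0.193), where the groups overlapped. Without DM3 replicate 1 the MUNC spliced change was -0.66, also not called.

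The stearoyl-CoA desaturase genes differed from each other. Scd1 was at 645, 904 and 482 FPM in control GM and 840.0, 814 and 822 FPM in control DM3. It was at 504, 836 and 435 FPM in MUNC spliced GM and 1469.8, 634 and 661 FPM in MUNC spliced DM3. The MUNC genomic line had 791, 905 and 451 FPM in GM and 943, 581 and 734 FPM in DM3. No Scd1 change was called, at 0.33 ± 0.34 in control (adjusted p = 0.419), 0.58 ± 0.34 in MUNC spliced (0.192) and 0.11 ± 0.34 in MUNC genomic cells (0.826), and GM and DM3 overlapped in every line. Without DM3 replicate 1 the MUNC spliced change was 0.19, also not called.

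Scd2 was at 1955, 2047 and 1439 FPM in control GM and 1295, 1079 and 1162 FPM in control DM3. It was at 1952, 2637 and 1739 FPM in MUNC spliced GM and 3662, 1492 and 1452 FPM in MUNC spliced DM3. In the MUNC genomic line it was at 2579, 2409.9 and 1740.0 FPM in GM and 1094, 692 and 775 FPM in DM3. Scd2 fell by 1.40 ± 0.30 in MUNC genomic cells (adjusted p = 0.00103), with no overlap. In control cells the groups did not overlap either, and the change of -0.61 ± 0.30 was not called (0.0921; 0.0208 without MUNC spliced DM3 replicate 1 in the shared fit, 0.0398 with the replicate block and 0.0258 with only the compared groups). In MUNC spliced cells it was -0.06 ± 0.30 (0.901), and -0.50, also not called, without DM3 replicate 1.

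Fads2 and Fads1 encode the desaturases of polyunsaturated fatty acids. Fads2, the member that fell most in MUNC genomic cells, was at 168, 168 and 120.1 FPM in MUNC genomic GM and 52.6, 41.0 and 44.0 FPM in MUNC genomic DM3, with no overlap. It fell by 1.70 ± 0.25 there (adjusted p = 4.18e-05) and by 0.81 ± 0.25 in control cells (0.0113), and Fads1 fell by 0.69 ± 0.16 in MUNC genomic cells (0.00185). Acss2, which makes acetyl-CoA from acetate, was the 1 gene that rose in MUNC genomic cells. It was at 21, 21.9 and 13.6 FPM in MUNC genomic GM and 29.0, 28.1 and 30.3 FPM in MUNC genomic DM3, a rise of 0.63 ± 0.25 (adjusted p = 0.0476). That call was lost without any of 5 of the 6 MUNC genomic libraries, with adjusted p of 0.0536 to 0.217; GM replicate 2 was the exception. It was also lost with edgeR on reads (0.0611), with equal sums per library (0.0523) and without the filter on low values (0.0963).

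List medians were also taken in each library. Relative to the control GM mean, the median of the 18 sterol enzymes was -0.13, -0.23 and -0.17 in control DM3, 0.79, -0.43 and -0.94 in MUNC spliced DM3 and -0.77, -0.97 and -1.05 in MUNC genomic DM3. For the 9 fatty acid genes it was -0.36, -0.30 and -0.26 in control DM3. In MUNC spliced DM3 it was -0.08, -0.58 and -0.62, and in MUNC genomic DM3 -0.96, -1.23 and -1.02. Over all tested genes the library medians lay between -0.04 and 0.02. For sterol enzymes MUNC spliced DM3 replicate 3 lay within the range of the MUNC genomic DM3 libraries, replicate 2 above it and replicate 1 far above it.

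**Figure D4:**
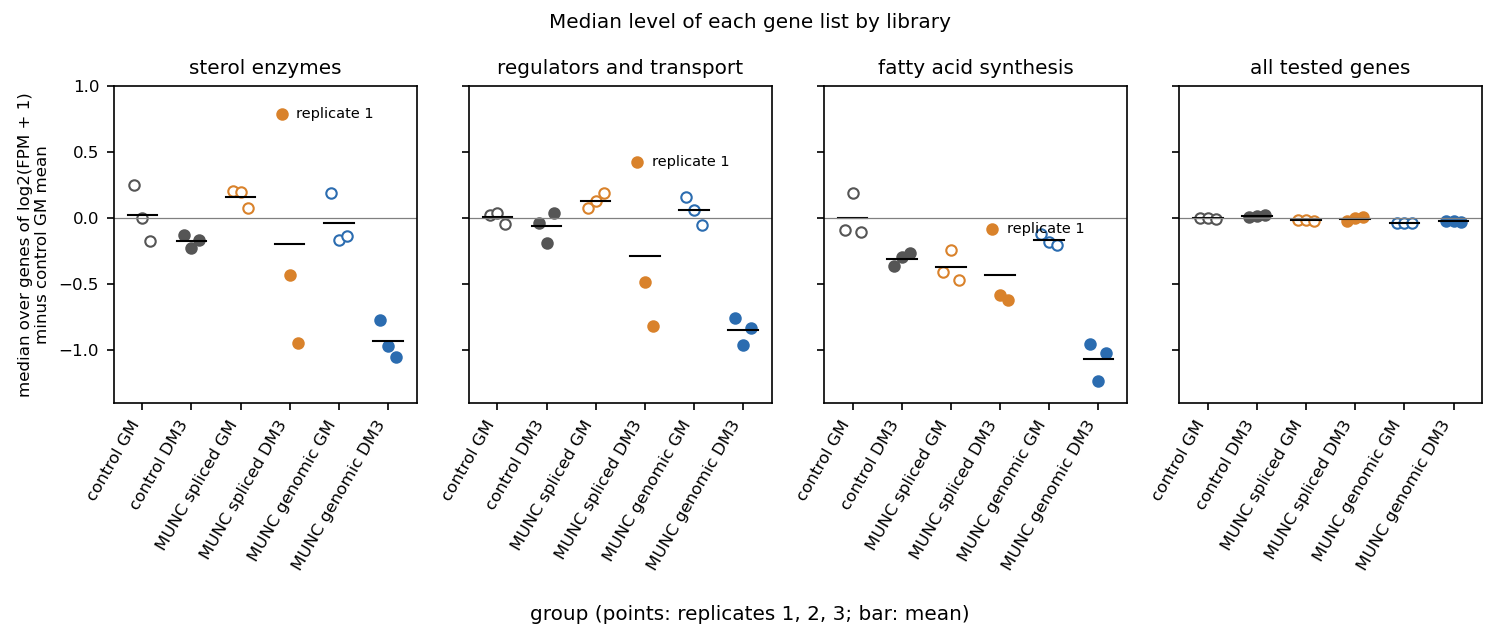
Median over the genes of a list of log2(FPM + 1) minus the control GM mean (y axis), 1 point per library, by group (x axis), with the group mean as a bar, for 18 sterol enzymes, 4 regulators and carriers, 9 fatty acid genes and all tested genes. Open points are GM and filled points DM3, and MUNC spliced DM3 replicate 1 is marked.

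Whether the DM3 change differed between a MUNC line and control was tested as an interaction. With limma, 0 of 31 genes were called for MUNC genomic (8.81% of tested genes were) and 0 for MUNC spliced (14.4%). On recovered reads edgeR also called 0 for MUNC genomic (5.6% of tested genes) and MUNC spliced (12.1%), as did DESeq2 (9.19% and 17.4%). At an unadjusted p under 0.05 there were 10 genes for MUNC genomic, all with a lower change than control, where 11.3% of tested genes were lower and 10.9% higher at that threshold. There was 1, Ebp, in the higher direction for MUNC spliced, where 15.7% were higher and 15.1% lower. The 10 were Msmo1, Nsdhl, Cyp51, Stard4, Fads2, Dhcr7, Sc5d, Fads1, Srebf1 and Acaca, with extra changes of -0.99 for Msmo1, -0.97 for Nsdhl and -0.60 for Srebf1 (adjusted p = 0.184, 0.211 and 0.117). The median extra change over the 31 genes was -0.68 for MUNC genomic and -0.14 for MUNC spliced cells.

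The interaction counts depended on MUNC spliced DM3 replicate 1, which enters the shared spread. Without it in the shared fit, 13 genes were called lower for MUNC genomic (9.89% of tested genes were called), and 12 were when the fit held only the compared groups (9.36%). The count of 13 follows in part from the smaller spread once that library, singled out on these same genes, is left out. For MUNC spliced, 8 were called lower without it (10.4%): Mvd, Lss, Hmgcs1, Insig1, Stard4, Pmvk, Fdft1 and Sc5d. Without MUNC genomic GM replicate 3, 1 gene was called for MUNC genomic, Fads1 (adjusted p = 0.0381), and without MUNC spliced DM3 replicate 3, 1 for MUNC spliced, Ebp, in the higher direction (0.0177).

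The lines were next compared with control in growth medium. Between MUNC genomic and control, Srebf2 was called higher and 0 genes lower (12.2% and 14.5% of tested genes). Srebf2 was 0.42 ± 0.13 higher on the log2 scale (adjusted p = 0.0225), with the 3 MUNC genomic GM libraries above the 3 control GM libraries, and the call was lost without control GM replicate 1 (0.103) or MUNC genomic GM replicate 2 (0.106). It was also lost when other groups were kept out of the fit (0.0673), and Msmo1 was called lower instead (18.2% of tested genes called). The replicate block gave 2 calls (37.4% of tested genes), leaving out control GM replicate 3 gave 2, and leaving MUNC spliced DM3 replicate 1 out of the shared fit gave 3 (28.3%).

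In MUNC spliced GM, Hsd17b7 was called higher, and Srebf1 and Acaca lower (18.2% and 17.3% of tested genes). Hsd17b7, a sterol ketoreductase, was at 41.7, 28.4 and 35.6 FPM in control GM, 82.1, 67.7 and 70.1 FPM in MUNC spliced GM and 58.7, 43.9 and 43.5 FPM in MUNC genomic GM. The MUNC spliced libraries were above all others in GM. The difference from control was 1.05 ± 0.30 (adjusted p = 0.0133; 0.0531 without control GM replicate 2). Srebf1 was -0.45 ± 0.16 against control (0.0376) and -0.67 ± 0.16 against MUNC genomic GM (0.00350), the only call of 31 between the MUNC lines in GM (16.0% of tested genes were lower and 19.9% higher). Acaca was -0.42 ± 0.16 against control (0.0461).

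The GM calls for Srebf1 and Acaca against control were each lost without control GM replicate 2 or 3 or MUNC spliced GM replicate 1 or 2, with adjusted p of 0.0582 to 0.133 for Srebf1 and 0.0898 to 0.220 for Acaca. Both were also lost without the filter on low values (0.0698 and 0.0822), with equal sums per library (0.111 and 0.129) and with quantile normalization (0.0800 and 0.0778), and that of Acaca with only the compared groups (0.129). Counts against control were 0 without control GM replicate 2, 1 without MUNC spliced GM replicate 1, 6 with the replicate block (46.6% of tested genes) and 10 without MUNC spliced DM3 replicate 1 in the shared fit (37.7%). Between the MUNC lines the last 2 settings gave 3 and 9 calls (47.0% and 37.6%).

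After 3 days in DM3, 14 of 31 genes were lower in MUNC genomic than in control cells and 0 were higher (20.9% and 19.3% of tested genes). The groups did not overlap for 24 genes that were lower and 0 that were higher in MUNC genomic DM3 (29.1% and 27.8% of tested genes). By arm, 7 of 18 sterol enzymes, 2 of 4 regulators and carriers and 5 of 9 fatty acid genes were lower, and the median difference over the 31 was -0.74, beside -0.01 over all tested genes. Msmo1 differed most. It was at 162, 142 and 140.1 FPM in control DM3 and 54.4, 46.0 and 37.9 FPM in MUNC genomic DM3, a difference of -1.67 ± 0.30 (adjusted p = 0.000343), with the GM libraries of the line, at 123, 91.6 and 96.7 FPM, also below the 201, 168 and 136 FPM of control GM.

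Insig1 was -1.20 ± 0.30 (0.00410), Fasn -1.12 ± 0.29 (0.00525) and Fads2 -1.07 ± 0.25 (0.00273) in the same comparison. Dhcr7, Nsdhl, Stard4 and Fdft1 differed by -1.02 to -1.0, and Pmvk, Mvd, Fads1, Sc5d, Acaca and Acly by -0.95 to -0.69. Among the 17 genes not called were Srebf2, at 296, 326 and 378 FPM in control DM3 and 346, 358 and 362 FPM in MUNC genomic DM3, and Elovl6, at 58.1, 55.7 and 62.7 FPM in control DM3 and 66.8, 64.2 and 58.9 FPM in MUNC genomic DM3. The Mvd call was lost without any of 5 of the 6 libraries compared, control DM3 replicate 1 being the exception (adjusted p of 0.0648 to 0.0938), and without the filter on low values (0.0703), and that of Sc5d without MUNC genomic DM3 replicate 3 (0.0504). With the replicate block, which pairs these groups by number, the count was 20 (50.5% of tested genes called): the 14 and Cyp51, Acat2, Lss, Idi1, Fdps and Hmgcs1, all lower. It was 22 without MUNC spliced DM3 replicate 1 in the shared fit (41.9%) and 24 when the fit held only the compared groups (46.8%). The count of 22 is no separate test, since that library was singled out on these same genes.

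In MUNC spliced DM3, Hsd17b7, Scd2 and Mvk were higher than in control DM3, and Pmvk and Acss2 lower (22.3% and 21.0% of tested genes). Hsd17b7 was at 42.4, 35.6 and 33.9 FPM in control DM3 and 142, 62.7 and 39.0 FPM in MUNC spliced DM3. The difference was 0.90 ± 0.30 (adjusted p = 0.0235), with replicate 3 of MUNC spliced inside the control range. Pmvk was at 28.6, 27.4 and 36.2 FPM in control DM3 and 30.4, 12.2 and 10.4 FPM in MUNC spliced DM3, a difference of -0.91 ± 0.27 (0.0114). Here replicate 1 was inside the control range and replicates 2 and 3 far below it.

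Without MUNC spliced DM3 replicate 1 the picture for this line was 18 genes lower than control and 0 higher (38.4% of tested genes called), of which 2, Pmvk and Acss2, were also called with it. Leaving out the highest library of the group lowers every member, so this direction is no separate test. Pmvk was then -1.36 ± 0.16 (1.11e-05), Insig1 -0.84 ± 0.16 (0.000701) and Dhcr7 -0.76 ± 0.15 (0.000814), while Hsd17b7 was 0.40 ± 0.20 (0.121), Scd2 0.32 ± 0.23 (0.296) and Mvk 0.38 ± 0.20 (0.139). Other libraries also moved the count: it was 2 without control DM3 replicate 2, 1 without control DM3 replicate 3 and 3 without MUNC spliced DM3 replicate 2. Each of the 5 calls was lost without at least 1 other library, with adjusted p of 0.0529 for Pmvk and 0.0656 for Acss2 without control DM3 replicate 3, and of 0.0642 for Hsd17b7, 0.0959 for Mvk and 0.129 for Scd2 without control DM3 replicate 2. With only the compared groups the calls for Mvk, Pmvk, Hsd17b7 and Scd2 were lost (adjusted p of 0.0817 to 0.126), and without the filter on low values those for Hsd17b7 (0.0531) and Scd2 (0.111). The replicate block kept the 5 and added Cyp51 as higher and Fasn as lower (53.3% of tested genes called).

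**Figure D5:**
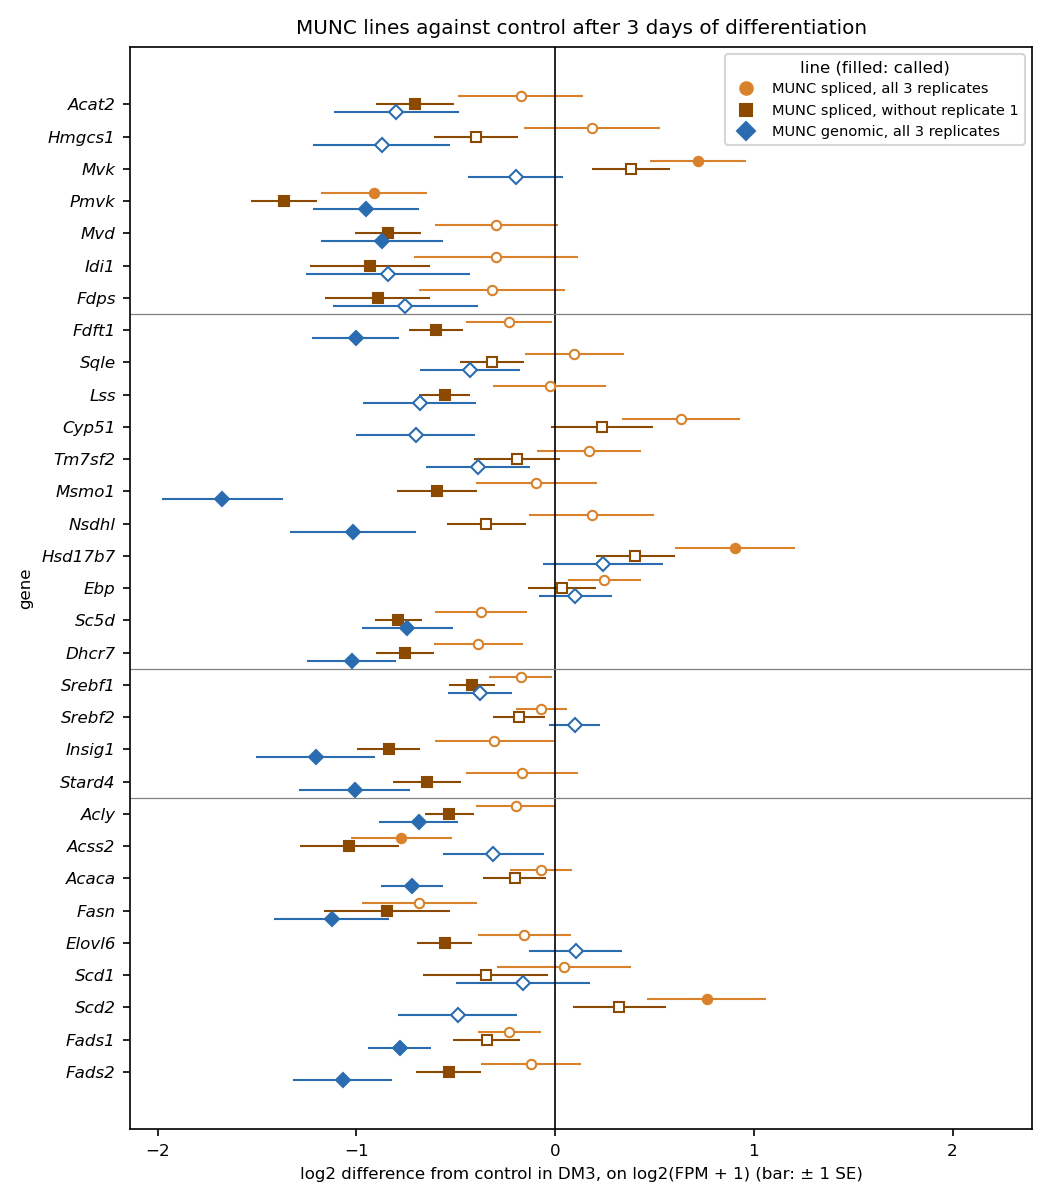
Difference of each of the 31 genes (y axis) from control in DM3, in log2 units on log2(FPM + 1) (x axis), with bars of ± 1 SE from limma, for MUNC spliced with all 3 replicates, MUNC spliced without replicate 1 and MUNC genomic. Filled points passed an adjusted p under 0.05: 5, 18 and 14 genes. Removing replicate 1, the highest of its group for all 31 genes, necessarily shifts the MUNC spliced points to the left.

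Set against each other in DM3, the MUNC lines differed for 13 genes, all higher in MUNC spliced (23.4% of tested genes were higher and 20.8% lower). The largest difference was again Msmo1, at 277, 123 and 77.1 FPM in MUNC spliced and 54.4, 46.0 and 37.9 FPM in MUNC genomic DM3, or 1.58 ± 0.30 (adjusted p = 0.000499). Cyp51 followed at 1.33 ± 0.30 (0.00169), Scd2 at 1.25 ± 0.30 (0.00286) and Nsdhl at 1.20 ± 0.32 (0.00542). Without MUNC spliced DM3 replicate 1, 8 of the 13 were still called (Msmo1, Cyp51, Scd2, Nsdhl, Mvk, Fads2, Acaca and Fdft1), and Elovl6 and Acss2 were then called lower in MUNC spliced (39.8% of tested genes called). Msmo1 was 1.08 ± 0.20 (0.000508) without that library. With only the compared groups 7 were called (44.3% of tested genes), those for Hmgcs1, Fdft1, Nsdhl, Dhcr7, Insig1 and Stard4 being lost (adjusted p of 0.0504 to 0.127). The calls for Insig1, Stard4 and Dhcr7 were lost without the filter on low values too (adjusted p of 0.0503 to 0.0590). The calls for Hmgcs1, Insig1, Stard4 and Dhcr7 were also lost without MUNC genomic DM3 replicate 2 or 3, and without MUNC spliced DM3 replicate 3 the count was 23.

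The same replicate number was the highest GM library in all 3 lines for 15 of the 31 genes, near the 45.7% of all tested genes for which this held. It was replicate 1 for 9 genes, among them Fdps, Mvk, Idi1 and Msmo1 (11.2% of tested genes), replicate 2 for Srebf2, Scd1, Fads1 and Acss2 (15.5%) and replicate 3 for Fasn and Acaca (19.1%). Fdps was lowest in replicate 3 in all 3 lines, where Fasn was highest. The labels give replicate numbers without a date or batch.

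Other genes that handle sterol and fatty acid were read beside the members, as lists of related function. In control cells from GM to DM3, 6 of 9 tested genes of cholesterol uptake, lysosomal release, transport and storage rose and 1 fell, where 29.6% of all tested genes rose and 28.6% fell. Npc2, which carries cholesterol out of lysosomes, was at 315, 252 and 269 FPM in GM and 882, 869 and 763 FPM in DM3, a rise of 1.59 ± 0.14 (adjusted p = 3.78e-07). Soat1, which esterifies cholesterol for storage, rose by 1.32 ± 0.13 (6.77e-07) and Gramd1a, a sterol transfer protein, by 1.16 ± 0.20 (0.000118). In each of these the DM3 libraries were above all GM libraries. In the same list 3 rose and 1 fell in MUNC spliced cells (17.2% and 18.4% of tested genes), and 5 rose and 1 fell in MUNC genomic cells (26.3% and 25.1%).

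The counts of the other lists in control cells are read against the same 29.6% of tested genes that rose and 28.6% that fell, and several lay near these shares. Of 7 tested genes of the oxysterol receptors LXR and their targets, 3 rose and 1 fell in control cells, led by Mylip, a ubiquitin ligase for lipoprotein receptors, at 8.50, 13.3 and 7.02 FPM in GM and 31.8, 42.1 and 50.4 FPM in DM3 (2.02 ± 0.27, adjusted p = 1.17e-05). Abcg1, a sterol exporter of that list, had 0 reads in all 18 libraries, as had Mlxipl, a glucose-responsive factor. Of 10 genes of SREBP processing and Insig regulation, 4 rose and 2 fell; Erlin1, an endoplasmic reticulum scaffold, fell by 1.04 ± 0.11 (1.92e-06) and Ubxn8, also of that membrane, by 1.0 ± 0.15 (3.14e-05), and Mbtps2, the site-2 protease that releases SREBPs, rose by 0.70 ± 0.15 (0.000671). Of 8 genes of isoprenoid branches and the last sterol step, 2 rose and 3 fell, with Pdss1, of the ubiquinone side chain, at 29.3, 22.3 and 32.7 FPM in GM and 4.26, 2.37 and 2.85 FPM in DM3 (-2.81 ± 0.23, adjusted p = 1.96e-07). Of 15 other genes of fatty acid and glycerolipid synthesis, 5 rose, led by Lpin1 (1.36 ± 0.20, 2.70e-05), and 5 fell, led by Elovl7 (-1.30 ± 0.29, 0.00113).

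The cell state markers moved beside these results. The 10 dividing-cell genes fell in all 3 lines, 10 of 10 each time (28.6%, 18.4% and 25.1% of tested genes fell in control, MUNC spliced and MUNC genomic cells), with a median log2 change of -3.22 in control, -2.34 in MUNC spliced and -3.07 in MUNC genomic cells. Of the 8 tested myotube genes, 1 rose and 1 fell in control, 8 rose in MUNC spliced and 7 rose in MUNC genomic cells, where 29.6%, 17.2% and 26.3% of tested genes rose. Against control in DM3, all 8 myotube genes were higher in both MUNC lines, 5 of 10 dividing-cell genes were higher in MUNC spliced and 1 of 10 in MUNC genomic cells, where 22.3% and 19.3% of tested genes were higher. The MUNC spliced counts include DM3 replicate 1. It had 1305 FPM of dividing-cell genes, while replicates 2 and 3, at 366 and 330 FPM, lay inside the control DM3 range of 271 to 494 FPM. Myotube genes were at 874, 158 and 214 FPM in the 3 replicates, all above the 8.39 to 13.8 FPM of control DM3. The part of these markers in the lipid gene changes was not tested.

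The authors' deposited table for control DM3 against GM, adjusted by the authors over their own gene set, held 10 of the 31 genes as lower and 0 as higher at an adjusted p under 0.05, where 43.2% of its genes with an adjusted p passed. The authors' deposited table for MUNC genomic against control in DM3 held 25 lower and 0 higher (39.3%), and that for the same lines in GM 1 of each (19.9%). For MUNC spliced against control, the authors' deposited table for DM3 held 4 higher and 2 lower (33.1%) and that for GM 4 of each (25.3%).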

How the data were processed

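RNA from 18 C2C12 cultures was sequenced as poly(A)-selected libraries. The deposited signal values (FPM) are gene read counts that the authors divided by 1 scaling factor per library. Every value above 0 was a whole multiple of what 1 read is worth, to within 0.0354 of a read, so whole reads were recovered and give the depth. STAR, HTSeq and DESeq2 and the build mm10 are named, without versions, per the submitters' processing notes. The authors' deposited comparison tables hold a log2 fold change, a p-value with its adjusted form, and a mean count and test score for each gene, per the file headers.

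Groups were taken from sample titles. The source labels, which name myoblasts or myotubes, go against the title's medium for some libraries. Replicates are called biological without saying how cultures were separated, so p-values measure only the spread between these samples. The main test was limma 3.58.1 (R 4.3.3) with a trended variance on log2(FPM + 1), for the 13869 genes that reached 0.5 FPM in 3 libraries or more. A single model of 6 group means held the 18 libraries, leaving 12 residual degrees of freedom, and Benjamini-Hochberg adjustment ran over all tested genes in each of 11 comparisons, two-sided. Printed adjusted p are from this fit unless another setting is named beside them. A gene was called at an adjusted p under 0.05. Alternatives were other pseudocounts, filters and scalings, edgeR 4.0.16 and DESeq2 1.42.0 on recovered reads, only the compared groups, a replicate block, each library left out, and, added after seeing the data, MUNC spliced DM3 replicate 1 left out of the shared fit. The fit was tested on simulated data.

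Whether equal replicate numbers pair the samples was checked by correlating their deviations from group means. The lowest correlation of a pair was over 0.1 for control DM3 against GM (0.203), for MUNC spliced (0.495) and MUNC genomic (0.494) against control in GM, for the same in DM3 (0.171 and 0.274) and for MUNC spliced against MUNC genomic in GM (0.456). It was not for DM3 against GM in MUNC spliced (0.0163) and MUNC genomic cells (0.0531), nor for MUNC spliced against MUNC genomic in DM3 (0.0939). The other same-number correlations of these comparisons were 0.217 to 0.434, so the cut of 0.1 does not show that pairing is absent there. The pairing comes from the data, since the labels give only numbers.

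The 31 genes and all lists were chosen with earlier results of these data known. Library values are given for 13 genes of both arms and their regulators, and for the called gene with the largest rise and fall in each comparison. In related and marker lists, up to 3 called genes with the largest change in control cells and genes at 0 are named. Myog and Myod1 were added after their values were seen. Exon lengths and positions are from GENCODE M21 (GRCm38), and upstream sequences from RefSeq (GRCm38.p6).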

Additional observations from a re-analysis of the deposited data

How the results depend on the processing

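Over counts and list medians, 903 of 975 alternative values stayed within 1.5 times the count or within the replicate spread, as did calls and directions for 1629 of 1802 single-gene values. When the fit held only the compared groups, the number of the 31 genes called was 10 for control DM3 against GM, 0 for MUNC spliced DM3 against GM, 7 for MUNC spliced against control in GM and 2 in DM3, 24 for MUNC genomic against control in DM3, 8 for MUNC spliced against MUNC genomic in GM and 7 in DM3, and 12 for the MUNC genomic interaction. Without a filter on low values it was 1 for MUNC spliced DM3 against GM, and 1 and 3 for MUNC spliced against control in GM and DM3. Equal sums per library and quantile normalization each gave 1 for MUNC spliced against control in GM. For these changes of filter and scaling the share of all tested genes called is not given. Whole reads gave 1 with edgeR and 1 with DESeq2 for MUNC spliced DM3 against GM (33.5% and 37.6% of tested genes), and 20 with DESeq2 for MUNC spliced against MUNC genomic in DM3 (46.6%). The cause of these shifts was not tested.

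With the replicate number as a block, the count was 8 for control DM3 against GM (65.3% of tested genes), 6 for MUNC spliced (46.6%) and 2 for MUNC genomic (37.4%) against control in GM, and 3 for MUNC spliced against MUNC genomic in GM (47.0%). Where the numbers did not pair the samples, the replicate block gave 7 for MUNC spliced DM3 against GM (47.7%), 1 for the MUNC spliced interaction (27.9%) and 2 for the MUNC genomic interaction (16.3%). It changed calls, within 1.5 times the count, for MUNC genomic (20, beside 50.5% of tested genes) and MUNC spliced (7, 53.3%) against control in DM3, for MUNC genomic DM3 against GM (25, 60.2%) and for MUNC spliced against MUNC genomic in DM3 (19, 54.6%).

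Leaving out 1 library at a time, MUNC spliced DM3 replicate 1 from the shared fit included, the number of the 31 genes called was 4 to 12 for control DM3 against GM, 1 to 22 for MUNC spliced DM3 against GM, 19 to 26 for MUNC genomic DM3 against GM, 0 to 10 for MUNC spliced against control in GM, 0 to 3 for MUNC genomic against control in GM, 1 to 18 for MUNC spliced against control in DM3, 12 to 22 for MUNC genomic against control in DM3, 1 to 9 for MUNC spliced against MUNC genomic in GM, 9 to 23 for MUNC spliced against MUNC genomic in DM3, 0 to 8 for the MUNC spliced interaction and 0 to 13 for the MUNC genomic interaction. Without MUNC spliced DM3 replicate 1, 9.89% to 59.0% of tested genes were called across comparisons. For the other libraries left out that share is not given, so those counts, here and above, cannot be set against it. The median log2 change over a list moved beyond the replicate spread only where a MUNC spliced or a control GM library was left out: for mevalonate steps it was -1.08 to -0.076 for MUNC spliced DM3 against GM, -0.84 to 0.25 for MUNC spliced against control in DM3, 0.027 to 1.05 for MUNC spliced against MUNC genomic in DM3 and -0.73 to 0.043 for the MUNC spliced interaction; for squalene and sterol steps it was -0.73 to 0.046 for MUNC spliced DM3 against GM, -0.34 to 0.36 for MUNC spliced against control in DM3, 0.20 to 1.01 for MUNC spliced against MUNC genomic in DM3 and -0.63 to 0.27 for the MUNC spliced interaction; for regulators and transport it was -0.55 to 0.035 for MUNC spliced DM3 against GM, -0.53 to 0.046 for MUNC spliced against control in DM3, 0.16 to 0.78 for MUNC spliced against MUNC genomic in DM3 and -0.59 to -0.059 for the MUNC spliced interaction; for fatty acid synthesis it was -0.50 to -0.17 for control DM3 against GM, -0.50 to 0.052 for MUNC spliced DM3 against GM, -0.53 to 0.046 for MUNC spliced against control in DM3, 0.28 to 0.58 for MUNC spliced against MUNC genomic in DM3 and -0.078 to 0.45 for the MUNC spliced interaction. Some changes also crossed 0, though in MUNC spliced DM3 against GM Hmgcs1 (-0.45 in the main fit) and Insig1 (-0.25) did not start near it. Both were lowest without DM3 replicate 1 and above 0 without DM3 replicate 3. In MUNC spliced DM3 against GM the change was -0.094 to 0.14 for Acaca, -1.04 to 0.024 for Hmgcs1, -0.78 to 0.13 for Insig1, -0.50 to 0.17 for Scd2, -0.32 to 0.068 for Srebf1 and -0.20 to 0.0020 for Srebf2. In control DM3 against GM the change was -0.36 to 0.20 for Fasn, -0.16 to 0.089 for Hmgcs1 and -0.21 to 0.073 for Idi1. In MUNC genomic DM3 against GM the change was -0.20 to 0.31 for Scd1. Equal sums and quantile normalization put Hmgcs1 at 0.013 and 0.030 in control DM3 against GM. DESeq2 put Insig1 at 0.0071 in MUNC spliced DM3 against GM, and edgeR and DESeq2 put Scd2 at 0.080 and 0.096. Depth did not limit the members, all of which passed the filter, while 3 replicates a group limit every test.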

Other observations

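Lists of related function were also counted between each MUNC line and control after 3 days in DM3, where 19.3% of all tested genes were higher and 20.9% lower in MUNC genomic, and 22.3% higher and 21.0% lower in MUNC spliced cells. Of 9 tested genes of cholesterol uptake, lysosomal release, transport and storage, 1 was higher and 5 lower in MUNC genomic than in control DM3, and 1 higher and 6 lower in MUNC spliced. Of 7 tested genes of LXR and its targets, 4 were higher and 0 lower in MUNC genomic, and 1 of each in MUNC spliced. Of 10 genes of SREBP processing, 5 were higher and 0 lower in MUNC genomic, and 5 higher and 1 lower in MUNC spliced. Of 15 other genes of fatty acid and lipid synthesis, 2 were higher and 5 lower in MUNC genomic, and 2 higher and 3 lower in MUNC spliced. Both comparisons share the 3 control DM3 libraries.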
